A study of Homo sapiens with 30 samples.

Results

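The 8 genes described here encode efflux pumps of the ATP-binding cassette (ABC) superfamily. They are ABCB1, ABCG2, ABCC1, ABCC3, ABCC4, ABCC5, ABCA1 and ABCG1, and they were taken by symbol from a count table of 63138 genes. All 8 passed the filter on low counts in each fit. RNA had been sequenced from hCMEC/D3 cells, an immortalised line derived from human brain microvessels that stands in for the endothelium of the blood-brain barrier, in 30 libraries that make up 10 groups of 3. The 5 direct groups were exposed for 12 h to serum-free medium alone (Control), to tumour necrosis factor alpha at 25 ng/mL (TNF), to interleukin 1 beta at 10 ng/mL (IL1b), to epinephrine at 200 nM (Epinephrine) or to C5a, a cleavage product of complement, at 50 ng/mL (C5a). The 5 vesicle groups received, also with 12 h in their labels, extracellular vesicles collected from supernatants of cells that had been given the same treatments, and are named with the prefix EV (EV-Control for medium alone). The dose of vesicles is not given in the sources used here. All 10 groups are the same cell line, and the labels name no pericytes or astrocytes, the cells that surround a brain capillary, beside it.

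ABC transporters use the energy of ATP to move substrates across a membrane. In brain capillaries, ABCB1 (P-glycoprotein) and ABCG2 (breast cancer resistance protein) sit in the membrane that faces the blood and return many drugs to it, and the ABCC members, the multidrug resistance-associated proteins, export conjugates, nucleotides and organic anions. ABCA1 and ABCG1 move cholesterol and phospholipid out of cells, ABCA1 to apolipoprotein A-I with little lipid and ABCG1 to more mature lipoprotein particles. Transcription of both is driven by the oxysterol-activated liver X receptors (LXR), which respond to high sterol, whereas the factor SREBP2 turns on sterol synthesis and uptake when sterol is low.

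Levels are given in CPM, the usual depth-scaled unit of counts, with library sizes adjusted over all 30 libraries by trimmed means of M-values (TMM), as the mean ± SD of n = 3 libraries where an error stands beside them. Comparisons are log2 fold changes with their standard error (SE) from edgeR's quasi-likelihood test, and a gene is said to rise or fall when its Benjamini-Hochberg adjusted p over all genes tested was under 0.05. The labels do not say that the 3 libraries of a group came from separate cultures, so p-values measure the spread between these libraries, which may be technical. In bulk RNA, fewer cells of one kind and less RNA per cell cannot be told apart. Library totals ran from 16643961 to 22112326 counts. Of 12 endothelial markers, 11 had at least 10 counts in each library, whereas the astrocyte and leukocyte lists summed to at most 5.78 and 4.15 CPM. In the list of 8 pericyte and smooth muscle markers, 6 were present (710.3 to 1003 CPM summed, KCNJ8 and DES under 10 counts). In Control, most of that sum was ANPEP (556 CPM) and CSPG4 (324.1 CPM). PDGFRB had 68.2 CPM there, and RGS5, ACTA2 and MYH11 had 7.86, 3.04 and 1.24. Of 6 epithelial markers 4, KRT8, KRT18, KRT19 and CLDN4, were present (164.7 to 366.4 CPM summed) with CDH1 and EPCAM under 10 counts. Most of the epithelial sum was KRT18 (253.6 CPM in Control). The second Epinephrine library was the lowest of its group for all 8 transporters, by little for some (ABCC5 at 49.0 CPM, beside 52.1 and 53.2). TMM factors were 0.86 to 0.879 for TNF and 0.991 to 1.06 for the other direct groups. Under scaling by total counts the all-gene median of TNF against Control went from -0.01 to -0.29, and 22.7% instead of 52.1% of the changed genes were then higher.

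Per kilobase of exon, ABCB1 and ABCC1 were the most abundant of the 8, at means of 32.6 and 32.1 CPM per kb over the 30 libraries. Both lay above 91.4% or more of the 16089 tested genes with a known exon length. ABCC4 (10.5 CPM per kb) and ABCC3 (9.61) followed, then ABCC5 (4.63), ABCG2 (2.54), ABCA1 (1.01) and ABCG1 (0.427). ABCG1 had only 14 to 95 counts per library, so its fold changes carry the widest errors. Of the 40 other ABC genes, 27 were tested, and only TAP1 and ABCF1 exceeded ABCB1 on this scale (50.3 and 37.5 CPM per kb). TAP1 is one chain of the pump that loads peptides for antigen presentation, and ABCF1 has no membrane domain and is not a transporter. No count at all was found for ABCB5 and ABCG8, and the close relative of ABCB1, the phospholipid exporter ABCB4, averaged 0.0239 CPM per kb.

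**Figure D1:**
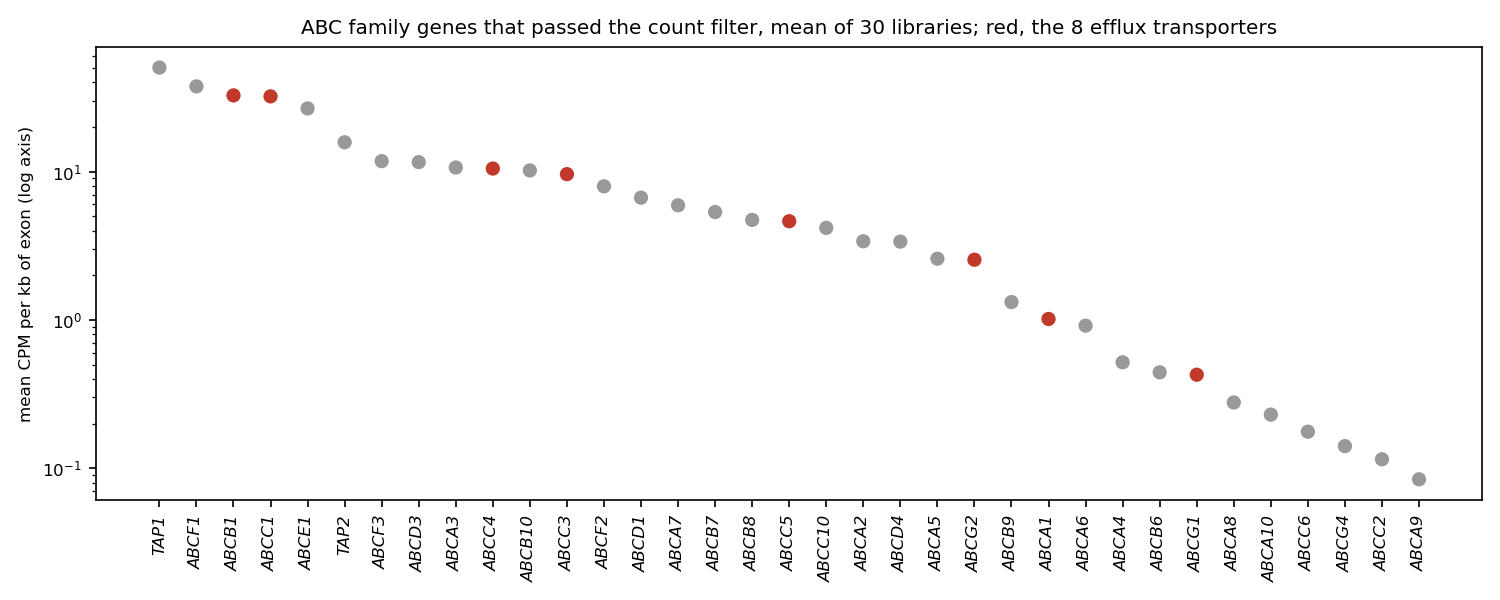
Mean level of each ABC gene that passed the low-count filter, in CPM per kilobase of exon on a log axis, averaged over 30 libraries. The 8 efflux transporters, in red, run from ABCB1 at 32.6 to ABCG1 at 0.427, and TAP1 and ABCF1 lie above ABCB1.

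Between conditions, the 2 genes with the lowest levels varied most. From the lowest to the highest group mean, ABCA1 differed 3.89-fold (TNF over C5a) and ABCG1 3.51-fold (TNF over EV-Control). ABCB1 differed 1.80-fold (TNF over EV-IL1b), ABCC3 1.71-fold (Epinephrine over EV-Epinephrine) and ABCG2 1.64-fold (Epinephrine over IL1b). For ABCC5, ABCC4 and ABCC1 the ratio was 1.36, 1.28 and 1.26. The highest and lowest groups were picked for being so, and these ratios are a description.

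**Figure D2:**
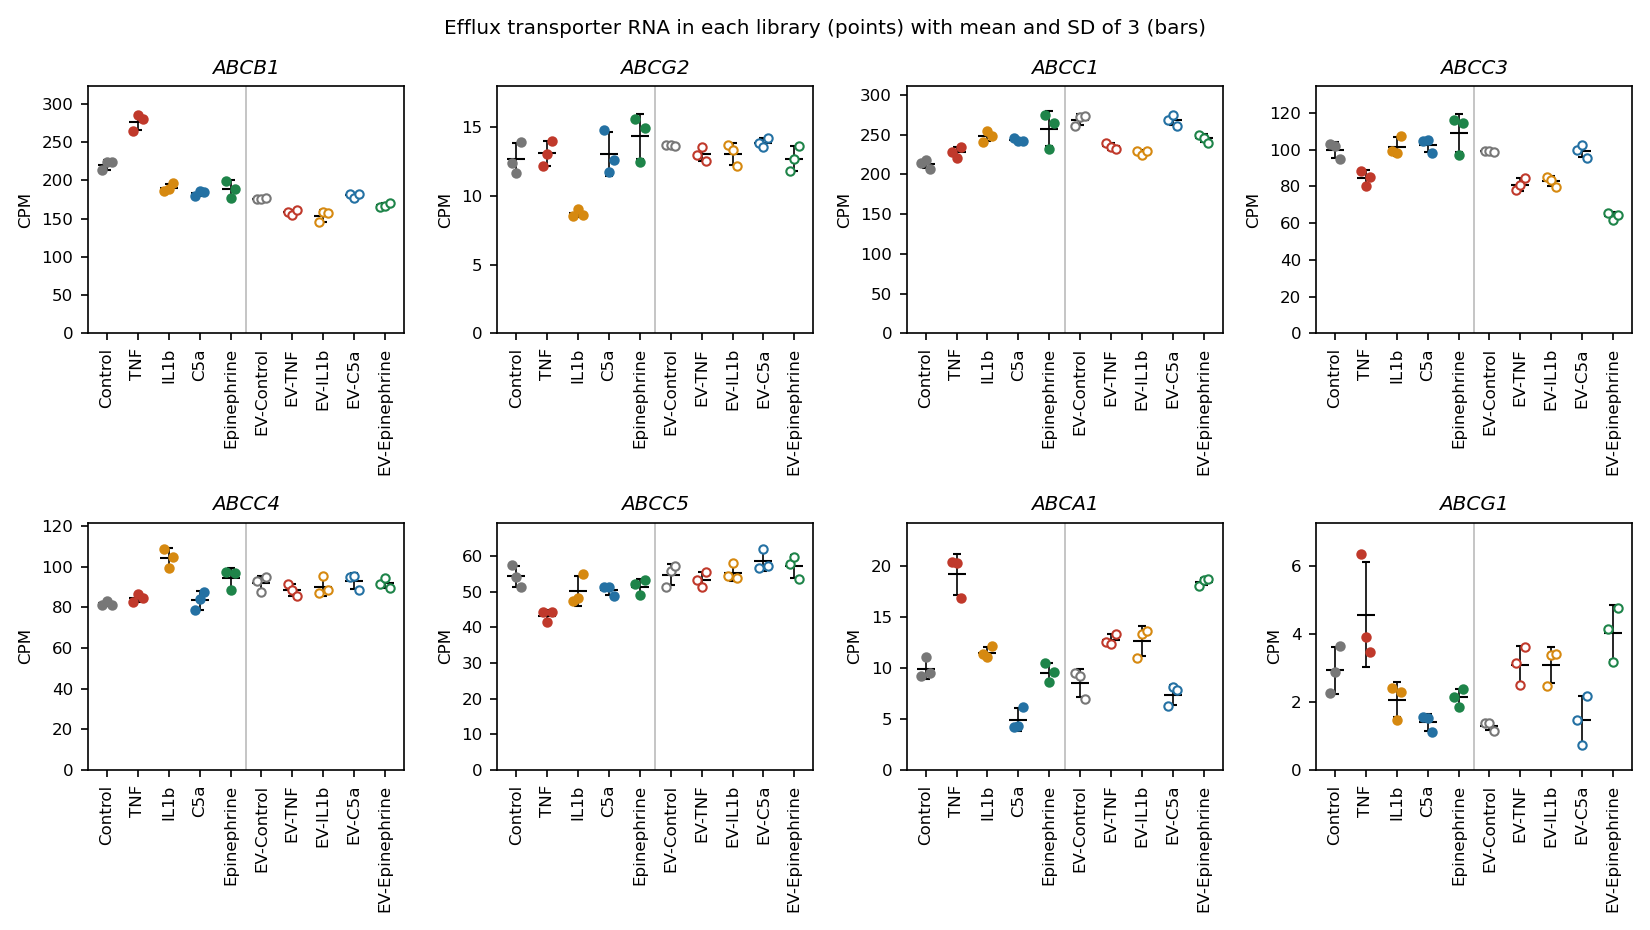
CPM of each transporter in every library (points, filled for direct groups and open for vesicle groups), with the mean and SD of 3 libraries as bars, each axis starting at 0. ABCA1 and ABCG1 are highest in TNF and EV-Epinephrine, ABCB1 is highest in TNF, ABCG2 is lowest in IL1b, and ABCC3 is lowest in EV-Epinephrine.

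The number of transporters that changed lay near the share of all genes for TNF and IL1b. With TNF, 5 of 8 changed, against 52.7% of all genes tested, 3 higher (27.5% of all genes) and 2 lower (25.3%). With IL1b, 4 changed, against 46.6%, 2 higher (24% of all genes) and 2 lower (22.6%). With C5a, 4 changed, against 22.6%, 1 higher (11.8%) and 3 lower (10.8%). With epinephrine, 3 changed, against 25.2%, 2 higher (13.5%) and 1 lower (11.8%). The vesicle groups were compared with EV-Control. EV-TNF changed 5 of 8, against 13.3% of all genes, 2 higher (5.9%) and 3 lower (7.42%). EV-IL1b changed 5, against 14.6%, 2 higher (6.49%) and 3 lower (8.14%). EV-Epinephrine changed 4, against 19.7%, 2 higher (9.12%) and 2 lower (10.5%). EV-C5a changed 0 of 8 by edgeR's quasi-likelihood test, against 0.0503% of all genes (0.0126% higher and 0.0377% lower). At an unadjusted p under 0.05 the EV-C5a count was also 0, as was the count by DESeq2. Finally, 4 differed between EV-Control and Control, against 21.9%, 2 higher (12.1%) and 2 lower (9.8%).

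In many genes the 3 libraries of each group did not overlap. This held for 5 of 8 transporters in TNF against Control (59.6% of all genes), 4 in IL1b (56.3%), 5 in C5a (40.4%) and 3 in Epinephrine (33.9%). Against EV-Control it held for 6 in EV-TNF (27.1%), 5 in EV-IL1b (28.5%), 1 in EV-C5a (10.9%) and 5 in EV-Epinephrine (34.1%), and in EV-Control against Control for 4 (34.9%).

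Few of these changes were large. Past both the test and a log2 fold change of 0.5 in size were 2 of 8 transporters with TNF (27.7% of all genes), 1 with IL1b (20%), 2 with C5a (6.11%) and 0 with epinephrine (6.31%). By DESeq2 without this size limit epinephrine gave 3, as by edgeR. Against EV-Control the counts were 2 with EV-TNF (4.01%), 2 with EV-IL1b (4.18%), 0 with EV-C5a (0.0126%) and 3 with EV-Epinephrine (5.64%), and 1 differed between EV-Control and Control (6.24%). IL1b and TNF differed in 4 (17.2%) and epinephrine and C5a in 1 (4.98%). For the vesicle minus the direct response, the counts were 0 for TNF (27.2%), 1 for IL1b (17.6%), 2 for C5a (4.45%) and 3 for epinephrine (10.8%).

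**Figure D3:**
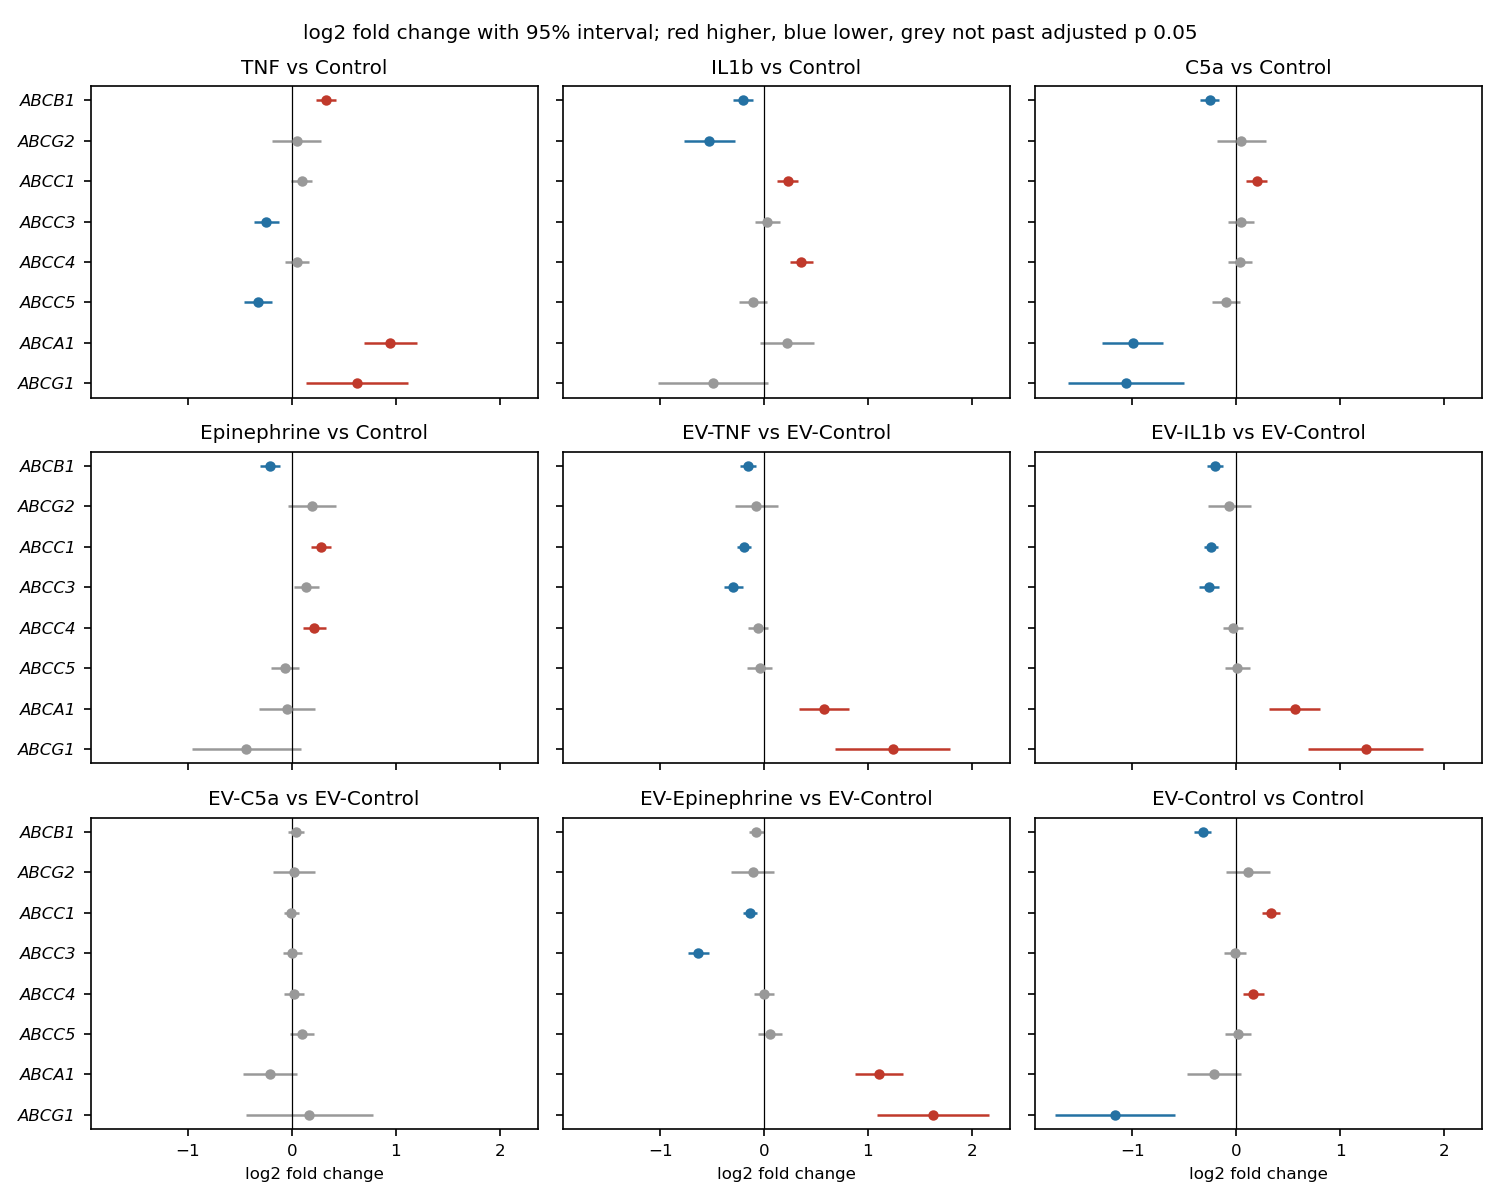
Log2 fold change of each transporter with its 95% interval in 9 comparisons, red where higher, blue where lower and grey where the adjusted p was not under 0.05. ABCA1 and ABCG1 lie to the right in TNF, EV-TNF, EV-IL1b and EV-Epinephrine and to the left in C5a, while all 8 intervals of EV-C5a span 0.

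ABCA1 (ENSG00000165029, chromosome 9, 104781002 to 104928237 on GRCh38, minus strand), the first step of cholesterol export, rose with TNF and fell with C5a among the direct stimuli. Control libraries had 9.21, 11.1 and 9.51 CPM, TNF libraries 20.4, 20.3 and 16.9 CPM, and C5a libraries 4.24, 4.34 and 6.23 CPM. The 3 groups did not overlap, with every TNF library above and every C5a library below all Control libraries. TNF raised ABCA1 by 0.95 on the log2 scale (SE 0.12, adjusted p 4.7e-08), and C5a lowered it by 1.00 (log2 fold change -0.996, SE 0.14, adjusted p 2.08e-06), to 0.501 of the Control level. Over 15 alternatives of the processing the TNF value of ABCA1 ran from 0.672 to 1.04. IL1b libraries (11.4, 11.1 and 12.1 CPM) and Epinephrine libraries (10.5, 8.6 and 9.6 CPM) overlapped Control and did not pass the test (0.22, 95% interval -0.04 to 0.48, and -0.04, 95% interval -0.31 to 0.22).

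Vesicles from epinephrine-treated cells gave the highest ABCA1 level among the vesicle groups. EV-Control libraries had 9.54, 9.21 and 7.01 CPM and EV-Epinephrine libraries 18.1, 18.7 and 18.7 CPM, a 2.16-fold rise (log2 fold change 1.11, SE 0.12, adjusted p 9.08e-11). The EV-Epinephrine libraries lay close together and far above EV-Control. EV-TNF libraries (12.6, 12.4 and 13.4 CPM) and EV-IL1b libraries (10.97, 13.3 and 13.7 CPM) were also all above EV-Control, by 0.57 (SE 0.12, adjusted p 0.000428) and 0.56 (SE 0.12, adjusted p 0.000623) on the log2 scale. EV-C5a libraries (6.28, 8.11 and 7.82 CPM) overlapped EV-Control. The 3 vesicle comparisons share their EV-Control libraries. In order of mean ABCA1, TNF and EV-Epinephrine overlapped each other and lay above all other groups. EV-TNF, EV-IL1b, IL1b, Control, Epinephrine, EV-Control and EV-C5a each overlapped the next, and C5a lay below all of them.

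ABCG1 (ENSG00000160179, chromosome 21, 42199689 to 42297244, plus strand), which acts after ABCA1 in lipid export, was low throughout. Control libraries had 2.28, 2.88 and 3.66 CPM, TNF libraries 6.35, 3.92 and 3.47 CPM, and C5a libraries 1.55, 1.54 and 1.11 CPM. TNF overlapped Control and its spread came from 1 high library, whereas all C5a libraries lay below Control. C5a lowered ABCG1 by 1.06 (log2 fold change -1.06, SE 0.28, adjusted p 0.00421). The rise with TNF was 0.63 (SE 0.24, adjusted p 0.0282), and it did not hold without the first TNF library (0.34, adjusted p 0.298), without the first Control library (0.48, adjusted p 0.147), without the second (0.62, adjusted p 0.0694) or with total-count scaling (0.36, adjusted p 0.207).

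ABCG1 rose in the same 3 vesicle groups as ABCA1. EV-Control libraries had 1.38, 1.38 and 1.15 CPM and EV-Epinephrine libraries 4.16, 3.19 and 4.78 CPM, a 3.10-fold rise (log2 fold change 1.63, SE 0.27, adjusted p 5.48e-06). EV-TNF libraries had 3.15, 2.51 and 3.64 CPM and EV-IL1b libraries 2.48, 3.38 and 3.42 CPM, and none of these libraries overlapped EV-Control. Their log2 fold changes were 1.24 (SE 0.28, adjusted p 0.000896) for EV-TNF and 1.25 (SE 0.28, adjusted p 0.000865) for EV-IL1b. EV-Control itself was the lowest group, below Control with no overlap (log2 fold change -1.17, SE 0.29, adjusted p 0.00153). Every neighbour in the order of ABCG1 means overlapped the next, from TNF through EV-Epinephrine, EV-TNF, EV-IL1b, Control, Epinephrine, IL1b, EV-C5a and C5a to EV-Control.

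**Figure D4:**
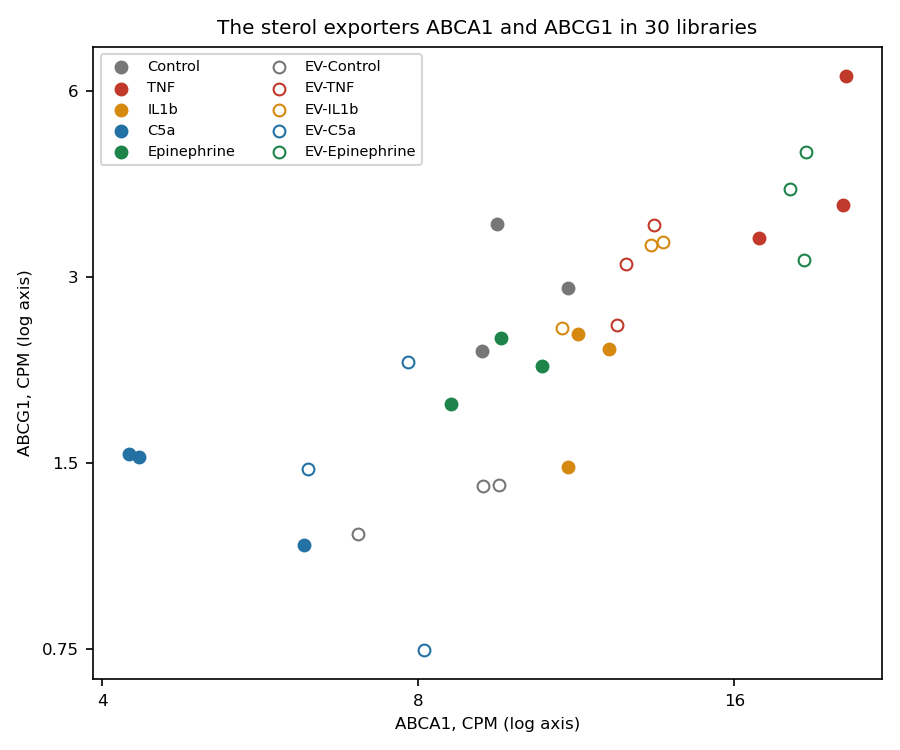
CPM of ABCA1 (x) against ABCG1 (y), both on log axes, one point per library, filled for direct and open for vesicle groups. TNF and EV-Epinephrine lie at the upper right and C5a at the lower left, while EV-Control has ABCA1 near Control and lower ABCG1.

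The ABCA1 promoter is shown because it holds an element of the kind that LXR binds, and LXR targets are described next. RefSeq gives these 250 bases before an annotated ABCA1 start on GRCh38.p14, on the minus strand of chr9:104928156-104928405. Capitals mark, in order, an E-box, a DR4 match on the other strand and a TATA box. GENCODE 29 sets the outer start of the gene at 104928237, inside this window. The DR4 match and the TATA box lie downstream of that outer start, and positions below are counted from the RefSeq start.
ABCA1 promoter: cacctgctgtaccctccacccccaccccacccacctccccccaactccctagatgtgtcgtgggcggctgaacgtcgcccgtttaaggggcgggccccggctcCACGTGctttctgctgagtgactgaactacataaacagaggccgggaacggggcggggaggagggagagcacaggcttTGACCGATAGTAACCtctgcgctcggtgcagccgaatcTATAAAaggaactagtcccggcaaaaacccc
The DR4, a pair of hexamers in direct repeat with 4 bases between them to which LXR and its partner RXR bind, was searched on both strands as GGTNA repeated in the same direction after any 5 bases. Read on its own strand with the matched parts in capitals, it spans chr9:104928210-104928224, from 69 to 55 bases before the RefSeq start.
ABCA1 DR4: GGTTActatcGGTCA
This motif was in 0.533% of 35116 RefSeq windows of the same 250 bases. The E-box CACGTG, from -147 to -142, was in 6.34% of windows, and the TATA box TATAAA, from -31 to -26, in 10.7%. Of the 10 genes on the LXR list below that had a window, 0 held the DR4 motif within it, and of 11 on the SREBP2 list 1 did. That gene was HMGCS1, at chr5:43313352-43313366.
HMGCS1 DR4: GGTCAcgcttGGTGA
Windows were present for ABCB1, ABCG2, ABCC4, ABCC5 and ABCA1, and among them only that of ABCA1 held the DR4 motif. None of these windows held the cAMP response element TGACGTCA or the NF-kB site searched, which were in 1.65% and 0.179% of all windows. A match or its absence in this short window describes the letters only.

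More LXR target genes fell than rose with each of the 4 direct stimuli. More rose than fell with EV-TNF, EV-IL1b and EV-Epinephrine. The list held 14 LXR targets other than ABCA1 and ABCG1, and 11 were tested. With EV-Epinephrine, 6 rose and 1 fell (median 0.23, all genes 0.01), among them SREBF1, the regulator of fatty acid synthesis (0.63, SE 0.04), the ubiquitin ligase gene MYLIP (0.36, SE 0.09), and the desaturase SCD (0.29, SE 0.03). EV-TNF raised 3 and lowered 1, and EV-IL1b raised 3 of the 11 while the median of the list was -0.04. SREBF1, MYLIP and SCD were the 3 that rose in each case, with SREBF1 at 0.35 (SE 0.04) with EV-TNF and 0.26 (SE 0.04) with EV-IL1b. With TNF, 2 rose and 7 fell (median -0.68, all genes -0.01). The falls included ABCA7, a lipid transporter (-1.01, SE 0.08), and NR1H3, which encodes LXR alpha (-0.97, SE 0.14). ABCA7 is also on the list of other ABC genes below. With total-count scaling 10 of the 11 fell. With C5a, 6 of the 11 LXR targets fell, with MYLIP at -0.56 (SE 0.12) and SREBF1 at -0.27 (SE 0.05). IL1b raised 1 and lowered 6, and epinephrine lowered 6. Of all genes, 52.7% changed with TNF, 46.6% with IL1b, 22.6% with C5a and 25.2% with epinephrine. The share was 13.3% with EV-TNF, 14.6% with EV-IL1b and 19.7% with EV-Epinephrine. The part of LXR in the changes of ABCA1 and ABCG1 was not tested.

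Genes of sterol synthesis and uptake mostly fell with EV-TNF, EV-IL1b and EV-Epinephrine. All 16 SREBP2 targets on the list were tested. With EV-Epinephrine 12 fell (median -0.19), among them the isomerase IDI1 (-0.42, SE 0.04) and the synthase HMGCS1 (-0.39, SE 0.04). EV-TNF raised 1 and lowered 10, among the latter HMGCS1 (-0.42, SE 0.04). EV-IL1b raised 1 and lowered 9, among the latter IDI1 (-0.36, SE 0.04). Against Control, EV-Control had 12 of the 16 higher (median 0.17), with IDI1 at 0.35 (SE 0.04) and HMGCS1 at 0.30 (SE 0.04). Mean IDI1 was 288.2 CPM in EV-Control, 219.5 in EV-TNF, 224.9 in EV-IL1b, 215.6 in EV-Epinephrine and 226.2 in Control. Among the direct stimuli, TNF raised 6 and lowered 3, a split that became 3 and 9 with total-count scaling. C5a raised 1 and lowered 5, IL1b raised 2 and lowered 6, and epinephrine lowered 8. The share of all genes changed was 52.7% with TNF, 46.6% with IL1b, 22.6% with C5a and 25.2% with epinephrine. It was 13.3% with EV-TNF, 14.6% with EV-IL1b, 19.7% with EV-Epinephrine and 21.9% in EV-Control against Control. A link between the SREBP2 targets and the transporters was not tested.

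**Figure D5:**
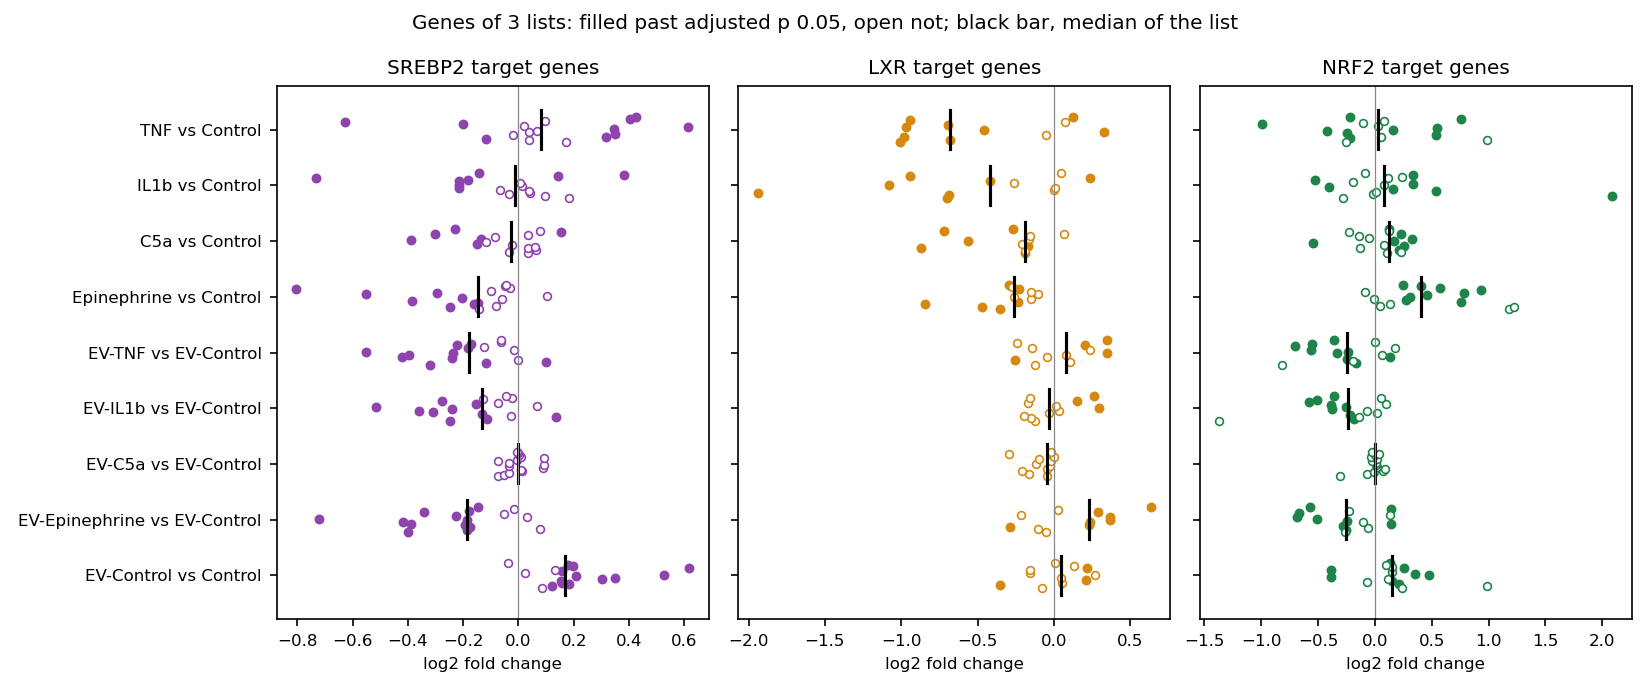
Log2 fold changes of the SREBP2, LXR and NRF2 target lists in 9 comparisons, one point per gene, filled where the adjusted p was under 0.05, with a black bar at each list's median. Most SREBP2 targets lie left of 0 with EV-TNF, EV-IL1b and EV-Epinephrine and right of 0 in EV-Control against Control, and all points of EV-C5a are open.

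A list of 12 sterol carriers and acceptors was mixed. With TNF, 4 of 11 tested rose and 4 fell, among them NCEH1, which frees cholesterol from its esters (2.15, SE 0.05), and CLU (-0.80, SE 0.06). IL1b also raised 4 and lowered 4, C5a raised 3 and lowered 2, and epinephrine raised 1 and lowered 3. EV-TNF and EV-IL1b each lowered 3, EV-Epinephrine lowered 1, CLU (-0.58, SE 0.04), and EV-Control against Control had 4 higher and 3 lower. Beside these counts, the shares of all genes changed were 52.7% (TNF), 46.6% (IL1b), 22.6% (C5a) and 25.2% (epinephrine). They were 13.3% (EV-TNF), 14.6% (EV-IL1b), 19.7% (EV-Epinephrine) and 21.9% (EV-Control against Control).

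ABCB1 (ENSG00000085563, chromosome 7, 87503633 to 87713323, minus strand), the P-glycoprotein gene, was highest in TNF and lower than Control in all other groups. Control libraries had 212.9, 223.6 and 224.3 CPM, and TNF libraries 264.9, 284.7 and 279.6 CPM. All TNF libraries exceeded all Control libraries, a 1.25-fold rise (log2 fold change 0.33, SE 0.05, adjusted p 2.45e-07). This rise depended on the scaling, since with total counts it was 0.05 (adjusted p 0.342). IL1b libraries had 185.4, 188.6 and 196 CPM, C5a libraries 179.4, 185.8 and 184.1 CPM, and Epinephrine libraries 199.5, 177.1 and 189 CPM. These 9 libraries all lay below Control, with log2 fold changes of -0.20 (SE 0.05, adjusted p 0.00047) for IL1b, -0.26 (SE 0.05, adjusted p 8.89e-05) for C5a and -0.21 (SE 0.05, adjusted p 0.000695) for epinephrine.

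In the vesicle groups ABCB1 was lower again. EV-Control libraries had 175.2, 176.1 and 177 CPM, EV-TNF libraries 158.7, 154.8 and 161.3 CPM, and EV-IL1b libraries 145, 158.3 and 156.9 CPM. The EV-TNF and EV-IL1b libraries were all below EV-Control, by 0.157 (log2 fold change -0.157, SE 0.04, adjusted p 0.00229) and 0.201 (log2 fold change -0.201, SE 0.04, adjusted p 7.7e-05). EV-Epinephrine (164.6 to 170.8 CPM) and EV-C5a (177.1 to 182.7 CPM) did not pass the test. EV-Control lay below Control by 0.32 (log2 fold change -0.323, SE 0.04, adjusted p 1.3e-08). All 30 libraries carry 1 batch number, and the labels do not say what besides the vesicles set EV-Control apart from Control. In order of the mean, TNF and then Control stood clear of the rest. IL1b, Epinephrine, C5a and EV-C5a overlapped in turn, EV-Control and EV-Epinephrine each stood clear of the next, and EV-TNF and EV-IL1b overlapped at the bottom.

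The summed level of the 12 endothelial markers differed between groups, as ABCB1 did, in part in the same direction. It was 1350 to 1407 CPM in Control, 1281 to 1329 in TNF, 1007 to 1042 in IL1b, 1021 to 1073 in C5a, 1116 to 1170 in Epinephrine and 901.9 to 943 in EV-Control. In TNF the marker sum thus lay below Control, whereas ABCB1 was higher than in Control. The sum was higher than in EV-Control with EV-TNF (997.3 to 1028 CPM), EV-IL1b (987.4 to 1058) and EV-Epinephrine (1003 to 1043), where the mean of ABCB1 was lower. The sums hid genes that moved apart. With TNF, 5 of the 11 endothelial markers tested rose and 6 fell, among them the tight junction gene CLDN5 (-1.26, SE 0.09). IL1b lowered 9 and C5a and epinephrine 8 each, with 0 raised. Of 12 tested, EV-Control had 11 lower than Control, and EV-TNF, EV-IL1b and EV-Epinephrine raised 5, 4 and 5 of 12 over EV-Control with 0 lowered. The pericyte and smooth muscle list, 6 of 8 markers present with DES and KCNJ8 under 10 counts, summed to 920.2 to 992.2 CPM in Control, 971.1 to 1003 in TNF and 710.3 to 797.7 across IL1b, C5a and Epinephrine. Most of each sum was ANPEP and CSPG4. With TNF 3 of the 6 fell, PDGFRB by the most (-0.96, SE 0.06), and 1 rose, CSPG4 (0.41, SE 0.05). IL1b lowered 3, C5a 2 and epinephrine 4, with 0 raised. In EV-Control it was 824.2 to 843.8 CPM and in EV-Epinephrine 952.9 to 975.7 CPM. The epithelial list, mostly KRT18, summed to 266.9 to 287.6 CPM in Control, 164.7 to 178.2 in TNF and 355.1 to 366.4 in C5a. Of its 4 genes TNF lowered 3, and C5a raised KRT18 (0.42, SE 0.05) and lowered KRT19 (-0.68, SE 0.19). Shares of all genes changed were 52.7% with TNF, 46.6% with IL1b, 22.6% with C5a and 25.2% with epinephrine. They were 13.3% with EV-TNF, 14.6% with EV-IL1b, 19.7% with EV-Epinephrine and 21.9% in EV-Control against Control. The part of the cell type markers in the changes of the transporters was not tested.

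ABCG2 (ENSG00000118777, chromosome 4, 88090264 to 88231322, minus strand), which shares many drug substrates with ABCB1, changed in IL1b alone among the 9 comparisons with a control group. Control libraries had 12.4, 11.7 and 13.95 CPM and IL1b libraries 8.56, 9.04 and 8.63 CPM. All 3 IL1b libraries were lower than every other library of the 30, and the fall was to 0.693 of Control (log2 fold change -0.53, SE 0.12, adjusted p 0.000412). The other 9 groups formed a single run of overlapping neighbours, with means from 12.7 ± 1.15 CPM in Control to 14.4 ± 1.64 CPM in Epinephrine. For TNF the 95% interval of the ABCG2 change was -0.19 to 0.28.

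ABCC1 (ENSG00000103222, chromosome 16, 15949577 to 16143074, plus strand), which exports glutathione conjugates and leukotriene C4, was lowest in Control. Control libraries had 214.4, 218 and 207.2 CPM. Libraries of IL1b (241.2 to 254.8 CPM), C5a (241.8 to 245.2 CPM) and Epinephrine (232.3 to 274.3 CPM) all lay above them. The log2 fold changes were 0.23 (SE 0.05, adjusted p 0.000231) with IL1b, 0.20 (SE 0.05, adjusted p 0.00284) with C5a and 0.28 (SE 0.05, adjusted p 4.15e-05) with epinephrine. The TNF value was 0.09 (adjusted p 0.11), and with total-count scaling it became -0.18 (adjusted p 0.00206). Among the vesicle groups, ABCC1 fell with EV-TNF, EV-IL1b and EV-Epinephrine from a higher base. EV-Control libraries had 260.7, 271.9 and 273.8 CPM (0.33 above Control, SE 0.04, adjusted p 5.2e-09). EV-TNF (231.5 to 239.6 CPM, -0.195, SE 0.03), EV-IL1b (224.3 to 229.8 CPM, -0.24, SE 0.03) and EV-Epinephrine (240 to 249.9 CPM, -0.131, SE 0.03) all lay below EV-Control, with adjusted p of 2.44e-05, 3.49e-07 and 0.00343. EV-C5a (261.2 to 274.3 CPM) overlapped EV-Control and did not pass the test (-0.0037, 95% interval -0.07 to 0.06).

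ABCC3 (ENSG00000108846, chromosome 17, 50634777 to 50692252, plus strand), an exporter of glucuronides and bile acids, showed the largest fall of the ABCC genes. EV-Control libraries had 99.1, 99.4 and 98.6 CPM and EV-Epinephrine libraries 65.4, 61.8 and 64.5 CPM. The EV-Epinephrine libraries were below every other library of the 30, and ABCC3 fell to 0.646 of EV-Control (log2 fold change -0.63, SE 0.05, adjusted p 1.78e-15). EV-TNF libraries (77.7, 80.5 and 84.7 CPM) and EV-IL1b libraries (85.1, 83.3 and 79.8 CPM) also lay below EV-Control without overlap. Their log2 fold changes were -0.294 (SE 0.05, adjusted p 5.13e-06) and -0.261 (SE 0.05, adjusted p 4.24e-05). Among the direct groups ABCC3 fell with TNF, from 102.8, 102.1 and 94.8 CPM in Control to 88.6, 80.1 and 84.8 CPM (log2 fold change -0.24, SE 0.06, adjusted p 0.000937). Over 15 alternatives of the processing the TNF value ran from -0.519 to -0.204. Epinephrine libraries had 115.9, 97.2 and 114.2 CPM and overlapped Control through the second library. The log2 fold change was 0.14 (adjusted p 0.0885) with that library and 0.22 (adjusted p 0.00109) without it. The 6 groups from Epinephrine to EV-Control overlapped in turn and stood clear of TNF, EV-IL1b and EV-TNF, which overlapped each other and stood clear of EV-Epinephrine.

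ABCC4 (ENSG00000125257, chromosome 13, 95019829 to 95301475, minus strand), which exports cyclic nucleotides and prostanoids, was highest in IL1b. IL1b libraries had 109, 99.6 and 104.9 CPM and Control libraries 81.1, 83.4 and 81.4 CPM. The IL1b libraries stood above every other library of the 30, and the rise was 0.36 (SE 0.05, adjusted p 1.06e-06). Epinephrine libraries (97.6, 88.5 and 97.0 CPM) were also all above Control, by 0.21 (SE 0.05, adjusted p 0.00312). TNF and C5a did not pass the test, and the TNF value of 0.05 (adjusted p 0.477) became -0.23 (adjusted p 0.000518) with total-count scaling. EV-Control (87.7 to 94.8 CPM) was above Control by 0.17 (SE 0.05, adjusted p 0.0136), which did not hold without the third EV-Control library (0.14, adjusted p 0.0696) or with total-count scaling (0.13, adjusted p 0.056). No vesicle group differed from EV-Control in ABCC4. The intervals were narrow, from -0.15 to 0.04 for EV-TNF and from -0.10 to 0.10 for EV-Epinephrine.

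ABCC5 (ENSG00000114770, chromosome 3, 183919934 to 184018015, minus strand), another exporter of cyclic nucleotides and nucleotide analogues, changed with TNF alone among the comparisons with a control group. Control libraries had 57.4, 54.1 and 51.4 CPM and TNF libraries 44.3, 41.4 and 44.3 CPM. Every other library of the 30 was above the TNF libraries, and the fall was 0.33 (log2 fold change -0.329, SE 0.07, adjusted p 8.51e-05). Over 15 alternatives of the processing this log2 fold change ran from -0.604 to -0.283. The other groups overlapped in turn, from 50.2 ± 4.12 CPM in IL1b to 58.7 ± 2.96 CPM in EV-C5a. With total-count scaling ABCC5 also fell with IL1b (-0.19, adjusted p 0.0185), from -0.11 (adjusted p 0.19).

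The direct cytokines were set against each other in 1 fit. All 8 transporters differed between IL1b and TNF, against 41.4% of all genes, 4 higher (19.9%) and 4 lower (21.4%) in IL1b. ABCG1 (-1.12, SE 0.25), ABCA1 (-0.73, SE 0.12), ABCG2 (-0.58, SE 0.12) and ABCB1 (-0.53, SE 0.05) were lower in IL1b, with adjusted p of 0.000402, 7.21e-06, 0.000173 and 9.27e-12. ABCC4 (0.31, SE 0.05), ABCC3 (0.28, SE 0.06), ABCC5 (0.22, SE 0.07) and ABCC1 (0.13, SE 0.05) were higher, with adjusted p of 1.47e-05, 0.000325, 0.00739 and 0.0283. All 8 had non-overlapping libraries, as did 51.5% of all genes. The ABCC1 difference was lost without TNF library 1 (adjusted p 0.0678) or 2 (0.123), without IL1b library 2 (0.122) or 3 (0.0549) and with DESeq2 (0.0501). The ABCC5 difference was lost without IL1b library 3 (0.16, adjusted p 0.0811). Under total-count scaling the all-gene median of this comparison was 0.21, and 76.1% instead of 48.1% of changed genes were then higher in IL1b.

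Epinephrine and C5a, both ligands of G protein-coupled receptors, differed in 2 of 8 transporters, against 17.1% of all genes, both higher with epinephrine (8.98% of all genes higher, 8.08% lower). Libraries did not overlap for 3 of 8 (29.8% of all genes). ABCA1 was higher with epinephrine by 0.95 (SE 0.14, adjusted p 4.77e-06), with no overlap of libraries. ABCC4 was higher by 0.18 (SE 0.05, adjusted p 0.0191), which was lost without C5a library 1 (adjusted p 0.158) or 2 (0.0506), without Epinephrine library 1 (0.067) or 3 (0.08) and in a fit of these 2 groups alone (0.0762). Without Epinephrine library 2 the count was 4, since ABCC1 (0.15, adjusted p 0.00515) and ABCC3 (0.17, adjusted p 0.017) passed as well.

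For each stimulus, the response to vesicles minus the response to the stimulus itself was tested as an interaction. With TNF, 3 of 8 transporters differed, against 44.7% of all genes, 1 higher with vesicles (21.3%) and 2 lower (23.4%). With IL1b, 5 differed, against 35.2%, 2 higher (16.9%) and 3 lower (18.3%). With C5a, 4 differed, against 11.9%, 3 higher (5.87%) and 1 lower (6.05%). With epinephrine, 5 differed, against 24.2%, 2 higher (11.7%) and 3 lower (12.5%). The 5 differences of the largest size were all of ABCA1 or ABCG1. ABCA1 responded to epinephrine vesicles by 1.16 more than to epinephrine (SE 0.18, adjusted p 5.47e-07), and ABCG1 by 2.08 more (SE 0.38, adjusted p 2.1e-05). For TNF the difference in ABCA1 did not pass the test (-0.37, 95% interval -0.72 to -0.02, adjusted p 0.082), but it did without Control library 2 (-0.46, adjusted p 0.0442), TNF library 3 (-0.46, adjusted p 0.0368) or EV-Control library 3 (-0.50, adjusted p 0.0216). ABCC1 differed for all 4 stimuli, always with the vesicle response the lower of the pair, but for TNF the difference was 0.000949 with total-count scaling. In these comparisons the direct responses share the Control libraries and the vesicle responses the EV-Control libraries. The difference between EV-Control and Control therefore enters every interaction, and for ABCG1 it was -1.17. The C5a interactions stood beside 0 of 8 transporters changed by EV-C5a against EV-Control. Under total-count scaling the all-gene medians of the TNF and IL1b interactions were 0.31 and 0.11, and the share of changed genes that were higher from 47.7% to 76.7% and from 48.1% to 62.4%.

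Target genes of NRF2, a sensor of oxidative stress that can also act on ABCC genes, included 9 of 15 that rose with epinephrine, and 7 or 8 of 14 that fell with EV-TNF, EV-IL1b and EV-Epinephrine. Epinephrine lowered 0 (median 0.40, all genes 0.01), with the cystine carrier SLC7A11 at 0.94 (SE 0.06) and GCLM, of glutathione synthesis, at 0.76 (SE 0.05). Among vesicle groups 14 were tested. EV-Epinephrine raised 2 and lowered 7, among the latter TXNRD1 (-0.57, SE 0.03) and NQO1 (-0.51, SE 0.03). EV-TNF raised 1 and lowered 8, among the latter SLC7A11 (-0.71, SE 0.08), and EV-IL1b lowered 8. TNF raised 4 and lowered 5, IL1b raised 5 and lowered 2, C5a raised 6 and lowered 1, and EV-Control was higher than Control for 6 and lower for 2. With total-count scaling TNF raised 3 and lowered 7, and IL1b raised 4 and lowered 3. Of 6 tested targets of the aryl hydrocarbon receptor AHR, whose list shares NQO1 with that of NRF2, EV-TNF lowered 5 and EV-IL1b and EV-Epinephrine 3 each, with TIPARP at -0.63 (SE 0.07), -0.64 (SE 0.07) and -1.24 (SE 0.07). TNF raised 3 and lowered 1 (3 and 2 with total-count scaling), IL1b and C5a each raised 1 and lowered 3, epinephrine raised 1, and 3 were higher in EV-Control than in Control. Among all genes, 52.7% changed with TNF, 46.6% with IL1b, 22.6% with C5a and 25.2% with epinephrine. For vesicles the share was 13.3% with EV-TNF, 14.6% with EV-IL1b and 19.7% with EV-Epinephrine, and 21.9% in EV-Control against Control.

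Of 17 regulators of transporter genes, 16 were tested under direct stimuli and 15 under vesicles. AHR, HIF1A of the hypoxia response and NFE2L2, which encodes NRF2, were higher in EV-Control than in Control (1.01, SE 0.07, 0.57, SE 0.05, and 0.70, SE 0.09), and 5 of the 16 were. All 3 were lower than EV-Control with EV-TNF, EV-IL1b and EV-Epinephrine, with AHR at -0.63, -0.56 and -0.79 (SE 0.05 each). EV-TNF lowered 3, EV-IL1b lowered 3 and raised 1, and EV-Epinephrine lowered 4 and raised 2. TNF raised 6 and lowered 3, a split that became 4 and 9 with total-count scaling, and IL1b raised 6 and lowered 3, which became 4 and 5. C5a raised 2 and lowered 1, and epinephrine raised 5 and lowered 4, which became 4 and 5. By the main fit, 52.7% of all genes changed with TNF, 46.6% with IL1b, 22.6% with C5a and 25.2% with epinephrine. The all-gene share was 13.3% with EV-TNF, 14.6% with EV-IL1b, 19.7% with EV-Epinephrine and 21.9% in EV-Control against Control.

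Among the 27 other ABC genes tested, TNF raised 11 and lowered 9, led by the peptide pumps TAP1 (2.29, SE 0.05) and TAP2 (1.65, SE 0.05) and by ABCA2 (-1.31, SE 0.09), and with total-count scaling it raised 5 and lowered 13. IL1b raised 8 and lowered 9, C5a raised 3 and lowered 5, and epinephrine raised 6 and lowered 6. EV-TNF raised 2, EV-IL1b raised 2 and lowered 2, EV-Epinephrine raised 2 and lowered 3, and 2 were higher and 5 lower in EV-Control than in Control. TAP1 was raised by EV-TNF (0.40, SE 0.05) and by EV-IL1b (0.38, SE 0.05). Of 18 carriers for the uptake of organic solutes, 12 were tested in the direct groups. TNF raised 2 and lowered 3, with total-count scaling 1 and 8. IL1b raised 4, and C5a and epinephrine 1 each. SLCO3A1, an organic anion carrier, rose with EV-TNF (0.58, SE 0.11), EV-IL1b (0.58, SE 0.11) and EV-Epinephrine (0.78, SE 0.10), and was higher in EV-Control than in Control (1.06, SE 0.15). Of 13 carriers tested, EV-TNF raised 1, EV-IL1b 2 and EV-Epinephrine 2, which lowered 1, and of 14 tested 2 were higher and 1 lower in EV-Control than in Control. For both lists, the all-gene shares were 52.7% (TNF), 46.6% (IL1b), 22.6% (C5a) and 25.2% (epinephrine). They were 13.3% (EV-TNF), 14.6% (EV-IL1b), 19.7% (EV-Epinephrine) and 21.9% (EV-Control against Control). EV-C5a changed 0 genes of these 8 lists by edgeR's quasi-likelihood test and 0 by DESeq2. At an unadjusted p under 0.05 it had 1 or 2 in each list but that of NRF2, which had 0.

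The genes whose levels ran most alike over the 30 libraries, by Pearson's r of log2 CPM among 10548 genes, differed from member to member. They were CGNL1 for ABCB1 (0.938), TXNRD1 for ABCC3 (0.891), TPBG for ABCA1 (0.871), MKNK2 for ABCC5 (0.847), TMTC3 for ABCC4 (0.81), EGFLAM for ABCG2 (0.803) and PTPN11 for ABCC1 (0.795). ABCG1 was under the 5 CPM needed for this. CGNL1 encodes a junction protein, and TXNRD1 is on the NRF2 list. Within the 8 transporters, ABCA1 and ABCG1 were the most alike pair, with r of 0.784 over 30 libraries and 0.891 over the 10 group means. ABCC3 and ABCA1 were the most opposed (-0.685 and -0.732), and ABCB1 and ABCG2, the main drug pumps of this barrier, had r of -0.03 over 30 libraries. These values are a description over libraries that share groups and scaling.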

How the data were processed

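RNA was taken from hCMEC/D3 cells and libraries were made with the NEBNext Ultra RNA kit, per the labels' protocols. The authors deposited for the 30 libraries 1 table of raw counts by Ensembl gene ID, with no normalization. The submitters' processing notes list FastQC, STAR, DESeq2, R 4.4.1 and the build hg38. The counting program, the annotation release and the use of strand are not given in the sources used here. Of 63147 lines, 4 had no gene ID (0.00079% to 0.0016% of counts) and were left out, as were 2 broken records, and 3 repeated gene IDs were identical and kept once. Library totals of 16643961 to 22112326 counts set the precision. The SDs cover the spread of 3 libraries only. The SEs cover only the spread between libraries within the groups of each fit, with information shared across genes.

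The counts were tested with edgeR 4.0.16 under R 4.3.3 (filterByExpr, trimmed mean of M-values, robust quasi-likelihood fit, two-sided, Benjamini-Hochberg over all genes tested, threshold 0.05). The direct groups were fitted over 15908 genes and the vesicle groups over 15918, and EV-Control against Control and the interactions over 16691 in all 30 libraries. Over 15 comparisons the 8 members gave 120 tests. The step was also run on simulated counts in which few genes changed, in a single group and in both directions alike. That setting could not show how the scaling behaves where many genes change, as with TNF. Levels per kilobase and positions used GENCODE 29 exons, and no exon of a member overlapped one of another gene. Promoters came from RefSeq.

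The members and the gene lists (other ABC genes, regulators, targets of LXR, SREBP2, NRF2 and AHR, uptake carriers, sterol carriers, and cell type markers) were chosen with earlier results of these data known. All members are named, and from each list at most 4 genes, those with the largest change among genes that passed and whose higher group averaged 5 CPM or more (any of the regulators). Other ABC genes named for their level, and the closest of the 3 genes ranked by Pearson's r, are descriptions chosen after their values were seen. The values of some list genes are not reported here. Alternatives were relative log expression factors, total-count scaling, no filter, a log2 fold change over 0.5, DESeq2 1.42.0, a mean of at least 50 counts, a replicate block, leaving out each library, and fits restricted to the compared groups or widened to all libraries.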

Additional observations from a re-analysis of the deposited data

Results flagged for a closer look

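For 17 of the 32 pairs of a transporter and a stimulus, the response to vesicles differed from the response to the stimulus itself by edgeR's quasi-likelihood test of the interaction. Of all genes, 44.7% differed in this way for TNF (3 of 8 transporters), 35.2% for IL1b (5 of 8), 11.9% for C5a (4 of 8) and 24.2% for epinephrine (5 of 8), so that for TNF the share of transporters was below that of all genes. Values are the vesicle response minus the direct response on the log2 scale. For TNF they were -0.482 for ABCB1 (adjusted p 3.94e-10), -0.287 for ABCC1 (5.11e-05) and 0.289 for ABCC5 (0.00579). For IL1b they were 1.75 for ABCG1 (0.000237), 0.471 for ABCG2 (0.0121), -0.457 for ABCC1 (4.71e-09), -0.377 for ABCC4 (2.28e-05) and -0.283 for ABCC3 (0.00222). For C5a they were 1.24 for ABCG1 (0.0434), 0.794 for ABCA1 (0.00332), 0.304 for ABCB1 (0.000173) and -0.193 for ABCC1 (0.0214). For epinephrine they were 2.08 for ABCG1 (2.1e-05), 1.16 for ABCA1 (5.47e-07), -0.76 for ABCC3 (4.2e-12), -0.403 for ABCC1 (2.09e-07) and -0.206 for ABCC4 (0.029). The difference between EV-Control and Control enters every value, -1.17 for ABCG1 and -0.323 for ABCB1. EV-C5a changed 0 of 8 transporters against EV-Control. Mean ABCG1 was 1.40 CPM in C5a and 1.47 in EV-C5a, beside 2.94 in Control and 1.30 in EV-Control. Mean ABCB1 was 183.1 CPM in C5a and 180.7 in EV-C5a, beside 220.3 in Control and 176.1 in EV-Control.

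The C5a difference in ABCG1 was lost when any 1 of 10 libraries was left out, down to 0.826 (adjusted p 0.285) without the third EV-C5a library, and when the other groups were left out of the fit (adjusted p 0.0597). The epinephrine difference in ABCC4 was lost without Control library 1, Epinephrine library 1 or 3, EV-Control library 3 or EV-Epinephrine library 3, with -0.185 to -0.206 and adjusted p of 0.0508 to 0.0735. The ABCC4 difference was also lost with total-count scaling (-0.17, adjusted p 0.0802) and with no low-count filter (-0.217, adjusted p 0.0532). A fit of only the groups compared lost it as well (-0.212, adjusted p 0.0563). The IL1b difference in ABCG2 was lost without the third Control library (0.392, adjusted p 0.054), and the C5a difference in ABCC1 with no low-count filter (-0.197, adjusted p 0.0535).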

How the results depend on the processing

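Of 244 counts of changed transporters under the alternatives, 224 stayed within 1.5 times the reported count. Of 1937 member values, 5 reversed, all with total-count scaling: in TNF against Control ABCC1 (-0.181) and ABCC4 (-0.227), and in the TNF interaction ABCC1 (0.000949), ABCC3 (0.24) and ABCC4 (0.188). That scaling gave 5 changed members in the TNF interaction. It moved the share of changed genes that were higher from 51.5% to 38.6% in IL1b against Control, from 46.4% to 60.2% in EV-Epinephrine against EV-Control and from 55.3% to 42.6% in EV-Control against Control. Another 76 member values no longer passed, 37 of them with the log2 fold change limit and 29 on leaving out a library, and 11 newly passed. A further 46 values that passed under neither setting changed sign. Requiring a log2 fold change over 0.5 left 2 members for TNF, 1 for IL1b, 2 for C5a, 0 for epinephrine, 4 for IL1b against TNF, 1 for epinephrine against C5a, 2 each for EV-TNF and EV-IL1b and 1 for EV-Control against Control. In the interactions it left 0 for TNF, 1 for IL1b, 2 for C5a and 3 for epinephrine. Across the 15 comparisons 0.0126% to 27.7% of all genes passed both limits. A fit of only the groups compared gave 1 for epinephrine against C5a, where leaving out single libraries gave 1 to 4. The main fit gave 2 there, against 17.1% of all genes. The ABCB1 interaction for epinephrine (0.15, adjusted p 0.0569) passed with total-count scaling (0.186, 0.0158), with a mean of at least 50 counts (0.155, 0.0376) and without Epinephrine library 1 (0.187, 0.0163). Replicate numbers did not pair the samples, since deviations of same-numbered libraries correlated at -0.0405 to 0.0286, and a replicate block left every count of members as reported, for example 5 for TNF, 4 for IL1b and 5 for EV-TNF. Depth limits ABCG1 most, at 14 to 95 counts per library.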
